A study of Mus musculus with 2 samples.

Results

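A set of 10 genes for receptors of colony-stimulating factors and cytokines was examined in RANKL-treated cultures of mouse bone marrow cells, and their transcript levels in a control library were set against those in an MMP9 knockout library. The members were taken by gene symbol from a deposited table, and 10 of 10 were found among its 26037 genes. They are Csf1r, Csf2ra, Csf2rb, Csf2rb2, Csf3r, Il4ra, Il6ra, Il10ra, Il10rb and Il13ra1. Both groups were made from marrow of C57BL/6 mice aged 6 to 8 weeks, first grown in medium with 10% serum and 5 ng/ml M-CSF. The non-adherent cells were then held in 30 ng/ml M-CSF for 3 days, and the adherent macrophages were given RANKL for 3 days, so M-CSF and RANKL are common to both groups. The groups differ by label in genotype, control against MMP9 KO. The headings of the table add "NCsh" to the control and "sh" to the knockout, letters that the labels do not explain. The sources used here do not say whether Mmp9 was deleted or silenced, nor how many animals gave marrow. Each group had n = 1 library, so no difference below has a replicate check and none could be tested between genotypes. All values describe these 2 libraries.

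These receptors carry the signals that keep macrophages alive and steer what they become. M-CSF acts through the receptor tyrosine kinase encoded by Csf1r, without which osteoclasts and most macrophages do not form. The other members lack a kinase domain and pass their signal through bound JAK kinases to STAT transcription factors, usually as a pair of a ligand-binding chain and a signalling chain. GM-CSF, IL-4, IL-10 and IL-13 are known to restrain osteoclast formation when added to precursors.

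Levels are given as normalised read counts, that is, reads multiplied by 1 factor per library and not divided by gene length. Values in parentheses after a level or a fold are exact 95% intervals that cover counting error only. A gene entered the comparison when its mean level over the libraries was at least 1, and it is called higher or lower where the log2 ratio of knockout to control, with a pseudocount of 1 added to both levels, reached 2-fold. Folds in the text carry no pseudocount. The control held 20678441 reads and the knockout 17741432.

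Of the 10 receptor genes 9 were compared, 5 were lower in the knockout by at least 2-fold, 1 was higher and 3 were within 2-fold. These counts depend on scaling: with equal library sums 2 were lower and 2 higher, with the median log2 ratio of all genes set to 0 or a trimmed mean of log ratios 3 were lower and 1 higher, and after centring by GC content 3 were lower and 2 higher. A pseudocount of 5 left 2 lower and 1 higher. Among all 11126 compared genes 9.58% were lower and 4.0% higher by the same rule. The background moved with scaling too: 445 genes were higher and 1066 lower as deposited, against 674 and 684 with library sums made equal, a shift of 0.29 in log2. The split was 565 and 799 with the median log2 ratio set to 0, and 572 and 791 with a trimmed mean of log ratios. Centring by GC content gave 539 and 671 among the 10707 compared genes with a known GC content. As deposited, the lower members were the 3 GM-CSF receptor genes Csf2ra, Csf2rb and Csf2rb2, the IL-10 receptor chain gene Il10rb and the IL-13 receptor chain gene Il13ra1. Il10ra was the higher one, and Csf1r, Il4ra and Il6ra were within 2-fold. Csf3r, at a mean of 0.526, did not reach the level for comparison. The median log2 ratio of the 9 compared members was -1.0, against -0.16 for all compared genes. Their log2 ratios ran from -2.76 for Csf2rb2 to 3.19 for Il10ra, so the members did not move as a block.

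**Figure D1:**
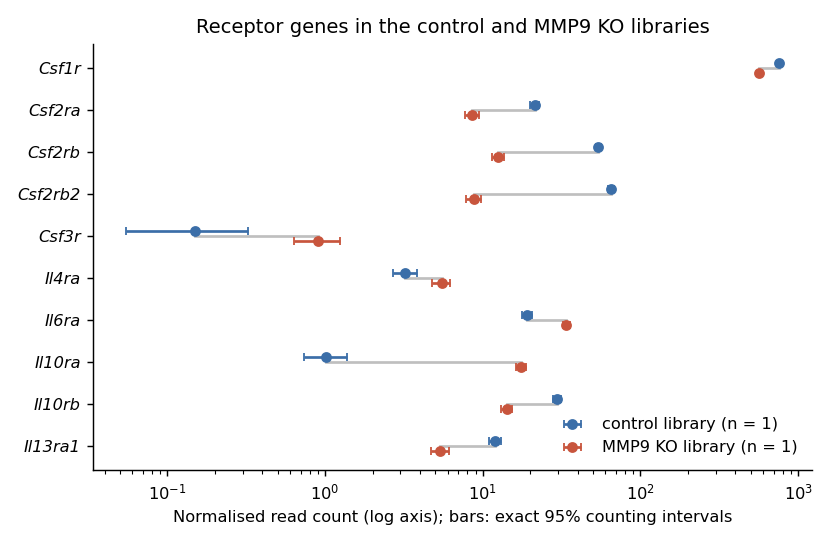
Normalised read count of each receptor gene (log axis) in the control library (blue) and the MMP9 KO library (red), 1 library each, with exact 95% counting intervals and a grey line joining the pair. The 3 Csf2 receptor genes, Il10rb and Il13ra1 lie lower in the knockout, and Il10ra lies higher, from 1.02 to 17.5.

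**Figure D2:**
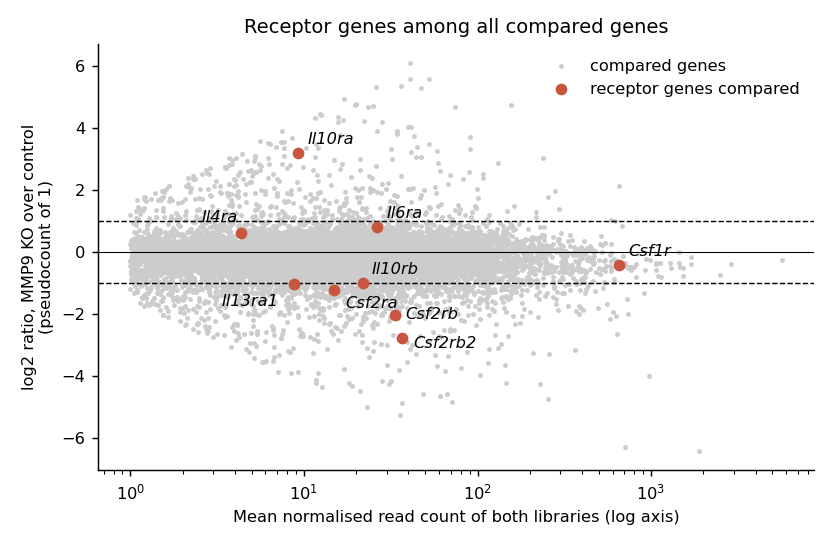
Log2 ratio of MMP9 KO to control (pseudocount of 1) against mean normalised read count (log axis) for 11126 compared genes (grey) and the 9 compared receptor genes (red), with dashed lines at 2-fold. Csf2rb2 at -2.76 and Il10ra at 3.19 lie farthest from 0 among the receptors, while Csf1r lies near 0 at a high level.

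The cultures differed in more than these receptors. Mmp9 was 139 in the control library and 3.87 in the MMP9 KO library. Mmp9 is itself a common osteoclast marker and was left out of that list here. Of the 9 other osteoclast markers that were found 8 were lower by at least 2-fold and 1 was within 2-fold, and their summed level was 6798 in the control library and 814 in the MMP9 KO library, with no marker at 0. Among the lower ones 3 passed the filter through the control alone. Of 7 macrophage markers 6 were compared, 5 of them higher and 1 lower, with sums of 258 and 798, and Fcgr1 and Mertk were at 0 in the control. Fcgr1, one of the higher ones, passed the filter through the knockout alone. Dendritic cell markers summed to 16.3 and 2.49, with 2 of 8 at 0 in both libraries, among them Flt3. Monocyte markers summed to 9.57 and 8.69, with Ly6c1 and Ly6c2 at 0 in both. Neutrophil markers summed to 0.348 and 2.40, with 8 of 12 at 0 in both. Lists for B cells, mast cells or basophils, stromal and erythroid cells each summed to under 0.5 in both libraries, and the T or NK cell list summed to 1.44 and 7.72, nearly all of it Lck (1.39 and 7.72). The part of these shifts in the receptor differences was not tested. In bulk RNA, fewer cells of a type and less RNA per cell cannot be told apart.

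Csf1r, which encodes the M-CSF receptor, was by far the most abundant of the 10 per unit of transcript length. Its level was 751 (742 to 759) in the control library and 564 (557 to 571) in the MMP9 KO library, from 30207 and 23729 reads. It was 1.33-fold lower in the knockout (1.31 to 1.35), a log2 ratio of -0.41 that stayed within 2-fold. Per kilobase of transcript it ranked 223 of 10707 compared genes in the control library and 207 in the MMP9 KO library. The gene shares exonic bases with Hmgxb3 on the opposite strand, and the sources used here do not state whether counting used strand. Hmgxb3 was 22.7 and 27.0, small beside Csf1r.

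The receptor for GM-CSF pairs an alpha chain, from Csf2ra, with a common beta chain, from Csf2rb, that also serves the IL-3 and IL-5 receptors. Mice carry a second beta chain gene, Csf2rb2, whose product works with IL-3. All 3 genes were lower in the knockout, and the beta chain genes lay further from the control than the alpha chain gene did. Csf2ra was 21.3 (19.9 to 22.7) in the control library and 8.60 (7.74 to 9.53) in the MMP9 KO library, 2.47-fold lower (2.18 to 2.80). Csf2rb was 54.1 (51.9 to 56.4) and 12.5 (11.5 to 13.6), 4.32-fold lower (3.93 to 4.76). Csf2rb2 was 65.1 (62.6 to 67.6) and 8.74 (7.87 to 9.68), 7.44-fold lower (6.67 to 8.33). The counting intervals of control and knockout did not overlap for any of these 3 genes. The IL-3 alpha chain gene Il3ra had no read in either library, and the IL-5 alpha chain gene Il5ra had 2 reads in the control library and 0 in the MMP9 KO library.

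The beta chain genes are close copies, which bears on how far their separate levels can be trusted. Their coding sequences, taken from the longest coding transcripts in GENCODE M21, are 2688 bases in Csf2rb and 2634 in Csf2rb2. Over 2628 aligned bases they differ at 125, an identity of 95.2%. They share an unbroken run of 242 bases, from coding base 2083 to 2324 in both genes counted from the first base of the start codon, in which a read cannot tell the genes apart, and which is shown here for that reason.
Csf2rb and Csf2rb2, shared run: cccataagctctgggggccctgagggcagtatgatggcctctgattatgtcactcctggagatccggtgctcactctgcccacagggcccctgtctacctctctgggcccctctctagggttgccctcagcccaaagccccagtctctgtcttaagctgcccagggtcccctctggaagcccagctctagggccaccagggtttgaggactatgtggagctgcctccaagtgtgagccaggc
The 90 bases with the most differences hold 16 of them, printed below in capitals, from coding base 308 to 397 in Csf2rb and 311 to 400 in Csf2rb2. Reads from there can be assigned.
Csf2rb: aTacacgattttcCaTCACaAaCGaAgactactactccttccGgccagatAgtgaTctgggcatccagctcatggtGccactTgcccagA
Csf2rb2: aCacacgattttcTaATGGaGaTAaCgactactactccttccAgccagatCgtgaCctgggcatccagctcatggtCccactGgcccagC
Of all 50-base windows of the Csf2rb transcript 18.4% occur without a difference in the Csf2rb2 transcript, and 7.0% of 100-base windows do. For Csf2rb2 the shares are 19.0% and 7.2%. The sources used here state neither the read length nor the handling of reads that match both genes, so the split between them is uncertain. Summed, they were 119 in the control library and 21.3 in the MMP9 KO library, 5.61-fold lower (5.22 to 6.03). The sum does not depend on the split if each shared read was counted once, which is not known.

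Csf3r, which encodes the G-CSF receptor of granulocytes and their precursors, was near the limit of detection. It was 0.149 (0.0547 to 0.324) in the control library and 0.903 (0.639 to 1.24) in the MMP9 KO library, from 6 and 38 reads. The intervals did not overlap, and the fold was 6.05 with a wide interval from 2.54 to 17.5. A count of 0 would have allowed a level of up to 0.0745 in the control, taking 3 reads as the limit. Among neutrophil markers, S100a9, Elane, Mpo and Ly6g had no read in either library, Lcn2 was 0 and 1.66, and S100a8 was 0 and 0.309. The gene for the ligand, Csf3, had 1 read in control and 128 in knockout, 0.0248 and 3.04, a ratio of 122 with an interval from 21.6 to 4871, so both Csf3r and Csf3 were higher in the knockout while staying low.

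The IL-10 receptor joins a ligand-binding chain, from Il10ra, to a chain from Il10rb that is shared with the receptors for IL-22 and interferon lambda. The genes for these chains lay on opposite sides of the control. Il10ra was 1.02 (0.731 to 1.38) in the control library and 17.5 (16.2 to 18.8) in the MMP9 KO library, 17.2-fold higher (12.5 to 24.1), with 41 and 736 reads. Il10rb was 29.5 (27.8 to 31.2) and 14.2 (13.1 to 15.4), 2.07-fold lower (1.88 to 2.29). With a log2 ratio of -1.003, Il10rb only just passed the 2-fold rule. It fell short of 2-fold under 5 of 8 processing alternatives, among them the median ratio of all genes set to 0 (-0.83) and equal library sums (-0.73). The gene for IL-10 itself was 0 in the control library and 1.09 in the MMP9 KO library, from 46 reads, at least 11.4-fold higher by the exact counting interval and 14.7-fold above a limit of 3 reads.

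IL-13 and IL-4 share a receptor made of the chains from Il4ra and Il13ra1, and IL-4 also signals through Il4ra paired with the common gamma chain from Il2rg. Il4ra was 3.23 (2.70 to 3.84) in the control library and 5.49 (4.80 to 6.24) in the MMP9 KO library, 1.70-fold higher (1.36 to 2.12) and within 2-fold on the pseudocount scale. Il13ra1 was 12.0 (11.0 to 13.1) and 5.39 (4.71 to 6.14), 2.23-fold lower (1.90 to 2.62). Its log2 ratio of -1.027 was also close to the threshold. Il2rg was 22.4 and 29.7, 1.32-fold higher (1.21 to 1.44). The decoy chain gene Il13ra2 had 0 reads in the control library and 7 in the MMP9 KO library. Il13 had no read in either library, and Il4 had 4 and 13 reads.

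IL-6 binds the chain from Il6ra and signals through gp130, from Il6st. Il6ra was 19.0 (17.7 to 20.4) in the control library and 33.9 (32.2 to 35.7) in the MMP9 KO library, 1.78-fold higher (1.63 to 1.95), with a log2 ratio of 0.80 that stayed within 2-fold. Il6st, not one of the 10 members, was 56.7 and 14.4, 3.93-fold lower (3.59 to 4.31). The other partners of gp130, Lifr and Osmr, had no read in either library, and Il11ra1 was 1.32 and 0.736. The gene for IL-6 had 0 and 3 reads. Of 11 partner chain genes listed beside the members 4 were compared, 1 was lower (Il6st) and 3 were within 2-fold, with a median log2 ratio of -0.69.

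The balance between partner chains can be read without any choice of library scaling, since the scaling factor cancels when 2 genes are set against each other in the same library. The ratio of Il10ra to Il10rb reads was 35.6-fold higher in the knockout (25.5 to 50.7). Per kilobase of transcript, Il10ra stood at 0.0183 of Il10rb in the control and at 0.651 in the knockout. The ratio of Il6ra to Il6st was 7.0-fold higher (6.17 to 7.96) and that of Il4ra to Il13ra1 was 3.78-fold higher (2.88 to 4.99). Il10ra, Il6ra and Il4ra, whose products bind IL-10, IL-6 and IL-4 directly, were thus each higher relative to the chain they signal with. The ratio of Il4ra to Il2rg shifted by 1.28-fold (1.01 to 1.63), an interval that nearly reached 1. Csf2ra was 1.75-fold higher against Csf2rb (1.49 to 2.05). Against the sum of both beta chain genes Csf2ra was 2.27-fold higher (1.96 to 2.62). The first of these ratios depends on the split between the beta chain genes. The second does not, if each shared read was counted once. Csf2rb2 was 1.72-fold lower against Csf2rb (1.49 to 2.0), under the limit on their split given above.

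**Figure D3:**
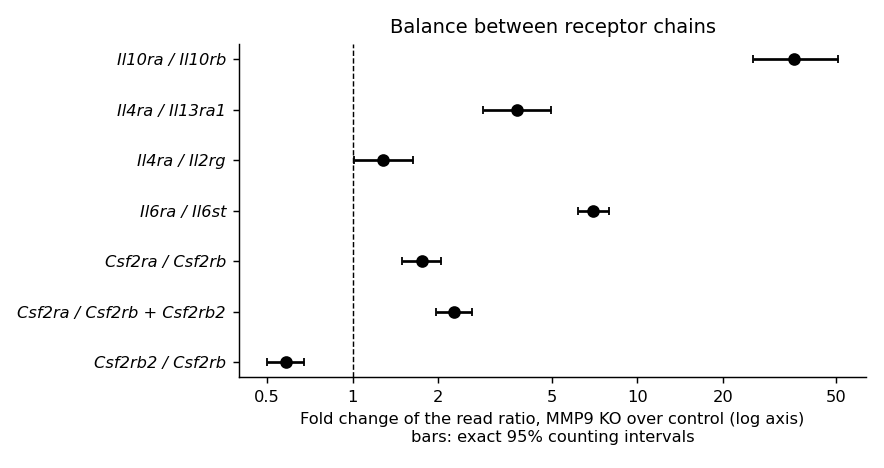
Fold change of the read ratio of each pair of receptor chain genes in the MMP9 KO library over the control library (log axis), with exact 95% counting intervals and a dashed line at no change. Il10ra over Il10rb is farthest from 1 at 35.6, and Il4ra over Il2rg is nearest at 1.28.

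The order of the members by level per kilobase of the longest coding transcript also differed between the libraries. In the control Csf1r was first at 160, followed by Il10rb (15.9), Csf2rb2 (13.7), Csf2ra (11.5), Csf2rb (11.0), Il13ra1 (3.24), Il6ra (2.20), Il4ra (0.615), Il10ra (0.291) and Csf3r (0.0428). Of these neighbours only Csf2ra and Csf2rb had overlapping counting intervals. In the knockout Csf1r stayed first at 120 and Il10rb remained next at 7.68. Il10ra took the third place at 5.00, where its interval overlapped that of Csf2ra at 4.65. Il6ra followed at 3.93, then Csf2rb (2.55), Csf2rb2 (1.84), Il13ra1 (1.45), Il4ra (1.04) and Csf3r (0.259). The place of Il6ra depends on the transcript used, since its coding transcripts are 8639 and 3343 bases long, and with the shorter one it would be 5.69 in the control library and 10.1 in the MMP9 KO library. Other members also have shorter coding transcripts, among them Csf2rb2 with 4740 and 3375 bases, so their places can depend on this choice too. The places of Csf2rb and Csf2rb2 also rest on the uncertain split between them.

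The genes around these receptors were examined in lists by role, and of the ligand genes 9 of 10 did not reach the level for comparison. The summed level of the 10 ligand genes was 0.820 in the control library and 4.68 in the MMP9 KO library. Csf1, which encodes M-CSF, had 4 and 5 reads. Il34, the gene for the other ligand of the M-CSF receptor, had 24 reads in the control library and 1 in the MMP9 KO library, 25.1-fold lower with a very wide interval (4.09 to 1032). Csf2 had 0 and 1 reads. Csf3 was the ligand gene that passed the filter, and it did so through the knockout alone.

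Downstream of the receptors, 8 of 10 compared JAK and STAT genes were within 2-fold, 2 were higher and 0 lower, with a median log2 ratio of -0.02. Stat2, best known from interferon signalling, was among the higher ones, at 8.10 and 24.2 (2.99-fold, 2.64 to 3.40). Jak1 was 110 and 102, Jak2 was 1.65-fold higher (1.47 to 1.84), and Jak3 was 7.78 and 6.65. The STATs used by these receptors stayed within 2-fold, with Stat3 at 41.2 and 48.3, Stat5a at 17.2 and 11.9, and Stat6 at 97.5 and 71.3. These 3 were named after their values were seen. Among 10 compared feedback inhibitors 1 was higher, 2 were lower and 7 were within 2-fold, with a median of -0.14. Socs3, which blocks signalling from gp130, was 1.37 and 14.5 (10.6-fold higher, 8.06 to 14.3). Socs2 was 2.34 and 0.499 (4.68-fold lower, 2.89 to 7.91), and Cblb, a ubiquitin ligase gene, was 18.7 and 6.22 (3.00-fold lower, 2.60 to 3.46). Of these, Socs2 passed the filter through the control alone.

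Of 12 compared genes of M-CSF receptor signalling 9 were within 2-fold, 2 were lower and 1 was higher, with a median of -0.26. The lower ones were the adaptor gene Tyrobp (161 and 71.6) and Tspan14 (34.7 and 15.9), a tetraspanin gene. Adam17, whose protease sheds the M-CSF receptor from the cell surface, was 41.1 and 108, 2.62-fold higher. Grb2 was 79.4 and 63.6, Sos1 22.3 and 22.5, and Pik3cd 76.1 and 66.8. Among 7 compared transcription factor genes known to act on receptor genes, 2 were higher, 1 was lower and 4 were within 2-fold, with a median of -0.06. Sfpi1, which encodes PU.1, was 98.4 and 47.5 (2.07-fold lower, 1.96 to 2.19), Runx1 was 13.0 and 12.5, and Cebpa was 1.47 and 1.14. The higher ones were Ets2, at 14.5 and 54.0, and Irf8, at 0.745 and 9.45. Irf8 passed the filter through the knockout alone.

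Response genes of the same cytokines were mixed. Of 10 compared IL-10 and IL-6 response genes 3 were higher, 1 was lower and 6 were within 2-fold, with a median of 0.07. The higher ones were Socs3, Ier3 (8.52 and 31.6) and Tnip3 (12.8 and 32.8), while Bcl3 (8.05 and 10.2) and Nfil3 (4.15 and 5.53) were within 2-fold. The lower one was Sbno2 (96.2 and 41.2), named after its value was seen. Of 15 IL-4 and IL-13 response genes only 2 reached the level for comparison, Tgm2 (70.5 and 0.855) and Ccl22 (0.646 and 7.34), each through 1 library, and they lay in opposite directions. Arg1 had 2 and 3 reads, and Chi3l3 and Retnla had none in either library.

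**Figure D4:**
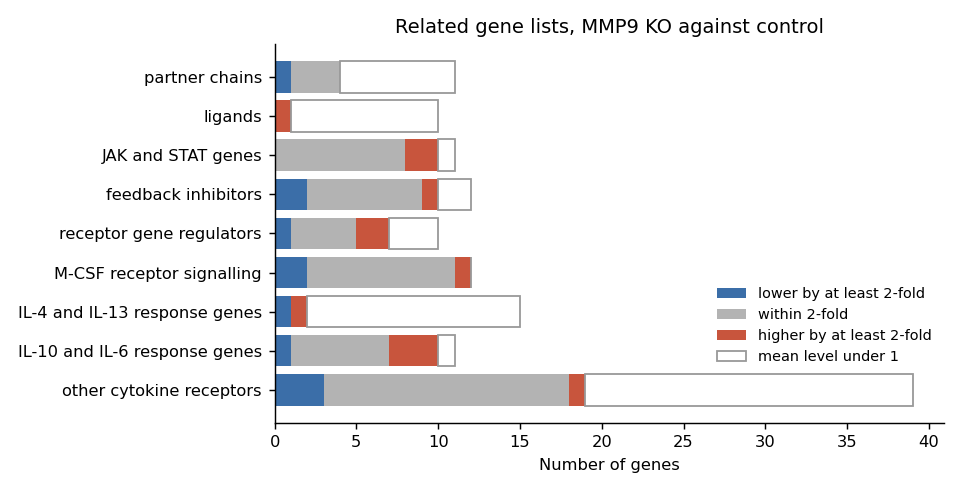
Number of genes in each related list that were lower by at least 2-fold (blue), within 2-fold (grey) or higher by at least 2-fold (red) in the MMP9 KO library, with genes whose mean level was under 1 in white. The ligand list and the IL-4 and IL-13 response list are mostly white, and most compared JAK and STAT genes, 8 of 10, are grey.

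Promoter sequence was available from the RefSeq table (GRCm38.p6) for 6 of the 10 genes: Csf2ra, Csf2rb2, Csf3r, Il4ra, Il6ra and Il13ra1. The motif GAGGAA, the core bound by PU.1 and other ETS factors, was searched on both strands from 250 bases before to 50 bases after the start. It occurred in 4 of the 6 (Csf2ra, Csf2rb2, Csf3r and Il6ra) and in 28.3% of all 32851 promoters of the same length. The STAT-like pattern TTCNNNGAA was in 1 of the 6, Csf2rb2, and in 8.3% of all promoters. The bases before the start of 2 genes that were lower together are shown, 150 for Csf2ra and 200 for Csf2rb2, in the direction of transcription and with GAGGAA or its reverse complement in capitals. Csf2ra holds 2 copies in a row next to the start, and Csf2rb2 holds 1 copy further upstream in the stretch shown.
Csf2ra (chr19:61228419-61228568, minus strand): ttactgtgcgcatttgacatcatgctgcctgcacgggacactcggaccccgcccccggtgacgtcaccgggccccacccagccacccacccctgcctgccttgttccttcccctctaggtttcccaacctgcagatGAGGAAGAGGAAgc
Csf2rb2 (chr15:78305722-78305921, minus strand): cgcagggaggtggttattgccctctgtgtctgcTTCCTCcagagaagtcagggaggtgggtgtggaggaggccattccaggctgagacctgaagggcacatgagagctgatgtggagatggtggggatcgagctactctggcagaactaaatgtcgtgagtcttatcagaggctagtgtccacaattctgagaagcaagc
These matches describe letters only, and no binding was measured.

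By position, the members are spread over 9 chromosomes in GRCm38, another build than the mm9 used for alignment. Csf2rb2 (minus strand, chromosome 15, from 78282507 to 78305721) and Csf2rb (plus strand, from 78325752 to 78353847) stand head to head, 20.03 kb apart. On the far side of Csf2rb2, the next coding gene, the NADPH oxidase subunit gene Ncf4, was 84.6 and 58.5 and so within 2-fold. Il10rb (chromosome 16, from 91406164 to 91425834) lies in a cluster of receptor genes, between the interferon receptor genes Ifnar2 (33.4 and 30.5), 0.6 kb away, and Ifnar1 (34.3 and 21.6), both within 2-fold. Il10ra (chromosome 9, from 45253837 to 45269149) has neighbours that did not reach the level for comparison, BC049352 at 0.0497 and 0.808 and Tmprss13 at 0 and 0.0238. Il6ra (chromosome 3, from 89864059 to 89913196) lies 26.3 kb from Atp8b2, which was 23.9 and 44.8, a log2 ratio of 0.88 beside 0.80 for Il6ra. Csf3r (chromosome 4, from 126024550 to 126044440) lies 2.5 kb from the mitochondrial ribosomal gene Mrps15, at 7.43 and 7.15. Csf2ra lies on chromosome 19 (from 61223957 to 61228429), Il4ra on chromosome 7 (from 125552120 to 125579474), Il13ra1 on chromosome X (from 36112110 to 36171259) and Csf1r on chromosome 18 (from 61100598 to 61132149). Exons of Il4ra and Il6ra overlap antisense RNA genes in this annotation, and those of Il10rb overlap another coding gene, Gm21970, on the same strand, so reads there could have been shared.

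The sign of each of the 9 compared ratios was the same under the 8 processing alternatives tried, which for a change of pseudocount or filter is so by construction, but the count past 2-fold was not. Il4ra gave no value where a mean of at least 5 was asked for. Csf2rb, Csf2rb2 and Il10ra passed 2-fold under each of the 8. Csf2ra fell short with a pseudocount of 5 (-0.95), under equal sums (-0.96) and when centred by GC content (-0.70), and Il13ra1 fell short under 4 alternatives, between -0.87 and -0.71. Il6ra reached 2-fold with equal sums (1.08), and Il4ra did so after centring by GC content (1.02).

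**Figure D5:**
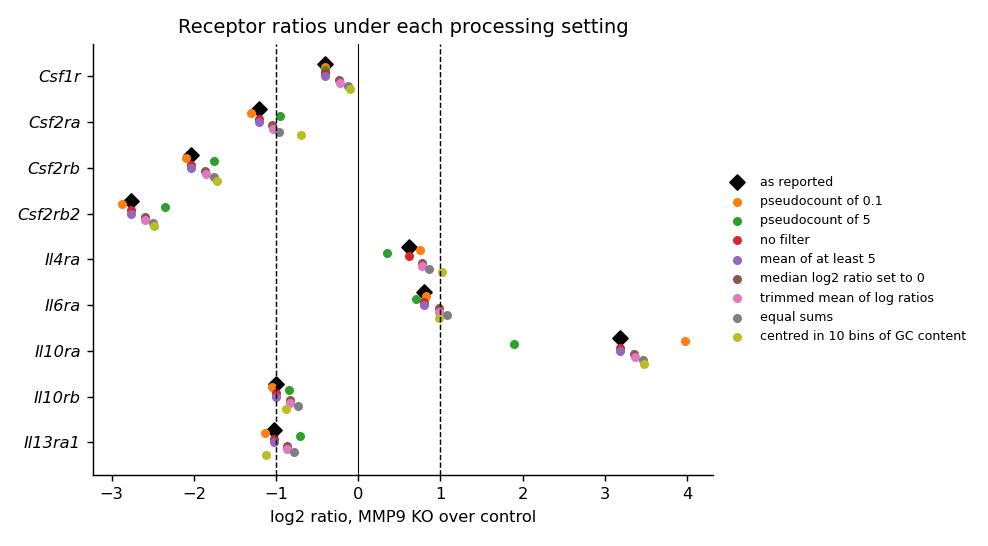
Log2 ratio of MMP9 KO to control for the 9 compared receptor genes as reported (black diamonds) and under 8 processing alternatives (coloured points), with dashed lines at 2-fold. Csf2rb, Csf2rb2 and Il10ra stay beyond the lines throughout, while Il10rb and Il13ra1 sit on the line and cross it.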

How the data were processed

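RNA was measured in 1 control and 1 MMP9 KO library, made from polyadenylated RNA on an Illumina HiSeq 2500 per the labels' protocols. Reads were aligned with TopHat to mm9, per the submitters' processing notes; the sources used here name no counter, annotation or normalisation method. The authors deposited log2 values for 26037 genes in a table titled normalised RPKM. After conversion from log2 the values were whole multiples of 1 step per library (0.0248 and 0.0238; 99.99% of values of genes with a read within 0.05 of a whole read in each library), whatever the gene's length, so they were treated as scaled reads. A gene without a read carried 0.9 of the step and was set to 0.

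Intervals are exact (Poisson for levels, binomial for folds, conditional odds ratio for chain ratios; SciPy 1.17.1), treat reads as independent and cover counting error only; without molecular identifiers, reads are not independent molecules. Lengths and GC content came from GENCODE M21 for 96.2% of compared genes, and coding sequences were aligned with Biopython 1.88. The recovery of reads and the fold intervals were run on simulated Poisson reads, written with the same steps and the same rule for genes without a read. That run checks the calculation only and cannot show whether the deposited values follow these rules.

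The members and lists were chosen with earlier results of these data known. Named genes are the members and, in each list, the first 3 entries and the 3 compared entries farthest from 0; any other gene in the text was chosen after its value was seen. The value of 1 gene that the rule names is not reported here. Alternatives were pseudocounts of 0.1 and 5, no filter or a mean of at least 5, 3 scalings, centring in 10 bins of GC content, and the sum of Csf2rb and Csf2rb2.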

Additional observations from a re-analysis of the deposited data

How the results depend on the processing

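No paired analysis was possible because each group had 1 library, which also kept any library from being left out. The number of receptor genes lower by at least 2-fold was 2 with a pseudocount of 5 and with equal sums, and 3 with the median log2 ratio set to 0, with a trimmed mean of log ratios and after centring by GC content; the number higher was 2 with equal sums and after centring. Among all compared genes 255 were higher and 603 lower with a pseudocount of 5, and 674 and 684 with equal sums. After centring 671 were lower, among the 10707 compared genes with a known GC content. The scalings raised the knockout by 0.18 (median), 0.19 (trimmed mean) and 0.29 (equal sums) on the log2 scale, and a larger pseudocount shrinks low genes by construction. Of 71 alternative values of the members 41 were rated the same as the reported value, 30 were rated moved and 0 changed sign. The ratings do not follow exactly the intervals printed for the folds, which carry no pseudocount. The Csf2rb log2 ratio of -2.03 was -2.43 for both beta chain genes summed. Of 71 alternative list medians 17 changed sign, from reported values between -0.26 and 0.07. For JAK and STAT genes these were 0.16 (median), 0.17 (trimmed mean), 0.26 (equal sums) and 0.40 (GC content). For feedback inhibitors they were 0.01 (mean of at least 5), 0.02, 0.03, 0.12 and 0.03 in the same order. For receptor gene regulators they were 0.09 (no filter), 0.24 (mean of at least 5), 0.11, 0.12, 0.21 and 0.31. The median of M-CSF receptor signalling was 0.02 with equal sums, against -0.26 as reported. That of IL-10 and IL-6 response genes was -0.16 with a mean of at least 5. The cause was not tested, except that a scaling adds its own shift. Depth limits Csf3r and the ligand genes, which rest on few reads.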

Other observations

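Other cytokine and growth factor receptors were listed beside the 10 members. Of 39 such genes 19 were compared, 3 were lower by at least 2-fold, 1 was higher and 15 were within 2-fold, with a median log2 ratio of -0.39. The lower ones included the TGF-beta receptor genes, Tgfbr1 at 378 in the control library and 38.4 in the MMP9 KO library (9.84-fold, 9.35 to 10.4) and Tgfbr2 at 136 and 39.8 (3.41-fold, 3.23 to 3.61). The third was Crlf2, which encodes a receptor chain for TSLP, at 2.19 and 0.214, named after its value was seen. Crlf2 passed the filter through the control alone. Il18rap, a chain of the IL-18 receptor, had 2 reads in the control library and 214 in the MMP9 KO library, 0.0497 and 5.08, a 102-fold difference with a wide interval (28.0 to 850). Il18rap, the only higher one, passed the filter through the knockout alone. Its partner gene Il18r1, also named after its value was seen, had 1 read in control and 0 in knockout, too few to compare. The interferon receptor genes Ifngr1 (27.1 and 15.6), Ifngr2 (55.5 and 42.1) and Ifnar1 (34.3 and 21.6) were within 2-fold. The receptor chain gene Il20rb was 2.24 and 0.665, with a log2 ratio of -0.96 on the pseudocount scale and 3.36-fold lower without a pseudocount (2.18 to 5.34).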
